A study of Saccharomyces cerevisiae with 26 samples.

Results

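The 10 iron regulators and iron-sparing effectors of Saccharomyces cerevisiae were taken from the 6692 open reading frames of the count table by name: the transcription factors AFT1 (YGL071W), AFT2 (YPL202C) and YAP5 (YIR018W), the proteins that relay iron status to Aft1, GRX3 (YDR098C), GRX4 (YER174C), FRA1 (YLL029W) and FRA2 (YGL220W), and the effectors TIS11 (YLR136C, also called CTH2), CTH1 (YDR151C) and HMX1 (YLR205C). The names were fixed with earlier results of these data known, though no threshold on a measured value defined them. All 10 passed the filter on low counts in each of the 12 comparisons made.

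RNA was sequenced from 8 groups of a BY4741-derived strain (OCY1131), 26 libraries in all. Every group carried MATa, his3Δ1, leu2Δ0, met15Δ0 and ura3Δ0. In all groups but H3A110Cgsh1Δ the genotype also lists (hht2Δ::ura3)Δ::HHT2, that is, HHT2 put back in place of a ura3 replacement. In SC, a synthetic complete medium with glucose that is fermented, WT and H3A110C had 3 libraries each. In SCEG, in which ethanol and glycerol replace glucose so that cells must respire, WT, H3A110C, gsh1Δ and H3A110Cgsh1Δ had 3 libraries each, and cup1F8* and H3A110Ccup1F8* had 4 each. H3A110C replaces an alanine of histone H3 by a cysteine in both HHT1 and HHT2 at their natural promoters. The gsh1Δ::KanMX6 deletion removes the first enzyme of glutathione synthesis, and the HHT2 locus of H3A110Cgsh1Δ was resected in the same way but carries the mutation, as its HHT1 does. The cup1F8* allele is a stop codon in every copy of CUP1, the copper metallothionein. Cells without GSH1 need glutathione from outside to grow, and the amount given to the cultures used for RNA is not given in the sources used here.

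Aft1 and its paralog Aft2 are activators that turn on iron uptake genes when iron is short. Iron-sulfur clusters made in the mitochondria are sensed by the monothiol glutaredoxins Grx3 and Grx4 together with Fra1 and Fra2, and that complex takes Aft1 off its promoters, so the genes it serves fall when cluster supply is sufficient. Among those genes, TIS11 encodes a zinc finger protein that binds AU-rich elements in mRNAs of iron-using proteins and hastens their decay, CTH1 encodes its paralog, and HMX1 encodes the heme oxygenase that frees iron from heme. Yap5 works at the other end: it binds iron-sulfur clusters when iron is plentiful and activates genes of iron storage and use, among them the vacuolar iron importer CCC1, TYW1 and GRX4 itself.

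The stretches before the start codons of TIS11, FRA1, CTH1 and HMX1 are shown because these were the 4 members whose upstream 500 bases held GCACCC, the 6-base core of the Aft element, on either strand. The sequences come from the R64 genome of RefSeq and are written along the gene, and capitals mark GCACCC or its reverse complement GGGTGC. TIS11 held a pair of copies within 101 bases that lie 258 to 158 bases before its start codon, at chrXII:416816-416916 on the minus strand.
TIS11: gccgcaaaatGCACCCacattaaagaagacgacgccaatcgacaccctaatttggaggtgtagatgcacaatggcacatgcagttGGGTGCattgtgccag
The FRA1 stretch lies at chrXII:81205-81230 on the plus strand, that of CTH1 at chrIV:765425-765450 and that of HMX1 at chrXII:554113-554138, both on the minus strand.
FRA1: cctaaaaatcGCACCCcattttcccg
CTH1: tgtgccaatgGCACCCaaatttttct
HMX1: taacaggtgcGGGTGCaagtttacta
Of 6001 genes, 457 (7.62%) held GCACCC in the same window, and 42 (0.7%) held at least 2 copies. The letters CACCC, which are part of GCACCC, were in 33.5% of the windows. AFT1, AFT2, YAP5, GRX3, GRX4 and FRA2 held no GCACCC in this window.

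The AU-rich element bound by Cth2 is shown next because copies of it lay after the stop codons of TIS11 and CTH1 themselves. TATTTAT, searched on the gene's own strand within 300 bases after the stop codon, occurred in 1021 genes (17%) and at least 2 copies in 191 (3.18%). TIS11 had 1 copy, 47 bases after its stop codon at chrXII:415748-415754 on the minus strand.
TIS11: taaactcaatTATTTATtatttttttc
CTH1 had 4 copies, of which the first pair overlap, and the first and the last are shown, 54 and 160 bases after the stop codon at chrIV:764118-764124 and chrIV:764012-764018 on the minus strand.
CTH1: tgcctctcctTATTTATttattcatta
CTH1: ctttttagttTATTTATttcattaggt
GRX4, FRA1 and FRA2 had 1 copy each, at 66, 38 and 290 bases after the stop codon. A match is a description of letters and was not tested as a binding site. Whether a copy lies within the message was not tested either.

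The libraries held 2917138 to 12305863 counts, so that 3 counts, used here as a floor, stood for 0.267 to 1.01 CPM (counts relative to the scaled total of the library). GSH1 had 0 counts in all gsh1Δ and H3A110Cgsh1Δ libraries. CUP1 had 0 counts in all 20 SCEG libraries, whatever the strain, so it gave no check of cup1F8*. In SC it was counted: the geometric mean of GSH1, CUP1-1 and CUP1-2 was 55.4 to 83.3 CPM in WT. Whether reads of SC and SCEG libraries were counted alike was not tested, and this bears on every value of SCEG against SC. The 5 genes specific to MATa cells summed to 391 to 2248 CPM in every library and the 4 of the other mating type, none of them at 0 in any library, to 32.3 to 83.8 CPM. Genes of both lists passed the test described below in some comparisons. Of the MATa genes 3 of 5 fell in SCEG against SC in WT (25.3% of all genes were lower). In gsh1Δ against WT 3 of 5 fell (12.8% lower). In cup1F8* against WT 3 fell and 1 rose (34.8% lower, 34.3% higher). In H3A110Cgsh1Δ against H3A110C 5 of 5 fell (4.03% lower), while 4 of 5 rose in H3A110Ccup1F8* against cup1F8* (24.6% higher). Of the other list 3 of 4 rose in SCEG against SC (25.6% higher), from 32.3 to 39.7 CPM summed to 59.8 to 64.5 CPM. In cup1F8* against WT 2 of 4 rose, and in H3A110Ccup1F8* against cup1F8* 3 of 4 fell (25.9% lower). The part of both lists in the results was not tested. Library B of both SC strains and library 2 of H3A110Cgsh1Δ stood apart from their replicates, and each member call that they change is given with and without them. Not every change that they make to counts of other genes is given. The library numbers in the labels repeat between the SC, the SCEG and the cup1F8* sets, so a difference of medium, or of cup1F8* from strains with CUP1, cannot be told apart from a difference between sets of libraries. In bulk RNA of whole cultures, fewer cells that express a gene and less RNA per cell cannot be told apart. Nothing in the labels says that replicates were separate cultures; the methods speak of independent experiments, and p-values measure the spread between these libraries.

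TIS11 and HMX1 varied most by far among the members. From its lowest to its highest group mean, TIS11 differed 108-fold and HMX1 38.7-fold, and the highest group of both was gsh1Δ. YAP5 differed 3.84-fold, AFT1 2.92-fold, FRA2 2.57-fold and GRX4 2.37-fold over the 8 groups. FRA1, CTH1, AFT2 and GRX3 differed 1.78-fold, 1.70-fold, 1.55-fold and 1.40-fold. The effectors thus spanned a wider range of CPM than the factors and sensors that act on them, apart from CTH1.

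**Figure D1:**
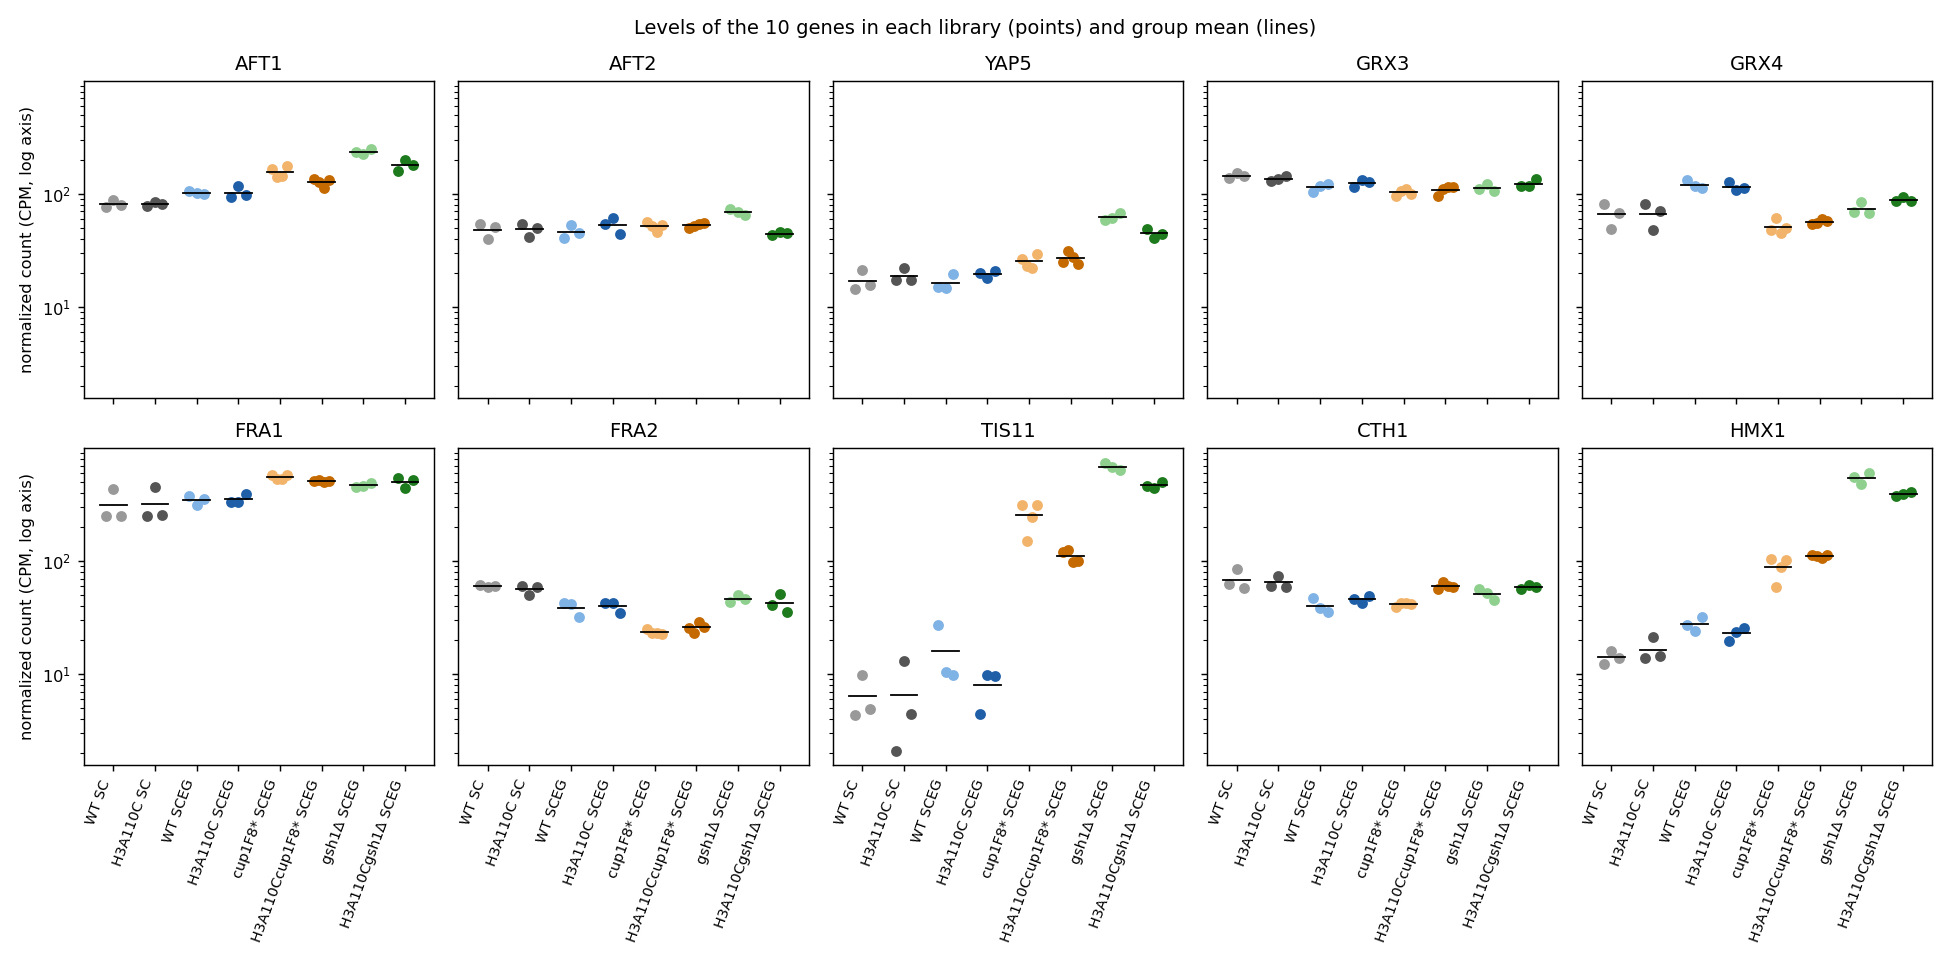
Expression of the 10 members in every library, in CPM on a log axis, by strain and medium. Each point is a library and each bar the group mean. TIS11 and HMX1 rise from WT in SC to gsh1Δ by 108-fold and 38.7-fold, whereas GRX3 stays within a 1.40-fold range of means.

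In gsh1Δ the iron uptake activators and the effectors TIS11 and HMX1 rose together. Against WT in SCEG, 7 of the 10 members passed the test (edgeR quasi-likelihood test, Benjamini-Hochberg adjusted p below 0.05 over all genes tested), 6 upward and 1 downward, where 25.3% of all genes tested passed, 12.5% upward and 12.8% downward. TIS11 had the seventh and HMX1 the tenth largest rise of 5678 genes. AFT1, AFT2, YAP5 and FRA1 rose with them, and GRX4, the glutaredoxin, was the single member that fell.

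Among the transcription factors, AFT1 had 107, 101 and 99.5 CPM in WT and 237, 223 and 249 CPM in gsh1Δ. The groups were far apart, and the log2 change was 1.22 (SE 0.09, adjusted p = 6.13e-06). YAP5, the factor of the iron-replete state, had 14.9, 14.8 and 19.6 CPM in WT and 59.3, 61.7 and 67.9 CPM in gsh1Δ. It thus rose more than AFT1, by a log2 change of 1.96 (SE 0.14, adjusted p = 7.21e-06). AFT2, the paralog with a smaller part in iron uptake, had 40.9, 53.5 and 44.9 CPM in WT and 73.2, 69.5 and 64.8 CPM in gsh1Δ. Its groups did not overlap either, with a log2 change of 0.59 (SE 0.12, adjusted p = 0.00591).

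Among the sensors of cluster supply, GRX4 had 134, 117 and 112 CPM in WT and 68.9, 84.8 and 67.5 CPM in gsh1Δ. The groups were separate and the log2 change was -0.69 (SE 0.12, adjusted p = 0.00205). FRA1, an aminopeptidase-like partner of Grx3 and Grx4, had 375, 315 and 353 CPM in WT and 450, 466 and 489 CPM in gsh1Δ, a log2 change of 0.44 (SE 0.09, adjusted p = 0.00641). That call was lost when all 26 libraries shared 1 fit (adjusted p = 0.105). GRX3, the second glutaredoxin, lay between 104 and 122 CPM in the 6 libraries, and its groups overlapped (log2 change -0.01, adjusted p = 0.972). FRA2, the BolA-like partner in the complex, had 42.4, 41.4 and 32.2 CPM in WT and 43.3, 49.7 and 46.6 CPM in gsh1Δ, which did not pass the test (log2 change 0.27, adjusted p = 0.164).

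Among the effectors, TIS11 had 27.4, 10.4 and 9.92 CPM in WT and 742, 677 and 639 CPM in gsh1Δ. The lowest gsh1Δ library was far above the highest WT library. The fitted difference was 42.7-fold, a log2 change of 5.42 (SE 0.30, adjusted p = 7.71e-07), and without WT library 1, the highest of the WT libraries, it was 6.07 on the log2 scale. HMX1 had 27.0, 24.2 and 32.0 CPM in WT and 557, 476 and 606 CPM in gsh1Δ, 19.9-fold higher, with a log2 change of 4.32 (SE 0.14, adjusted p = 3.15e-08). CTH1 had 47.4, 38.5 and 35.2 CPM in WT and 56.3, 52.3 and 45.2 CPM in gsh1Δ. These groups overlapped and CTH1 did not pass the test (log2 change 0.36, adjusted p = 0.0877), but it did without WT library 1 (0.49, adjusted p = 0.0351).

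The genes downstream of these regulators moved in the same fit. Of the 26 Aft targets outside the members, 25 rose and 1 fell, with a median log2 change of 3.37 where the median of all genes tested was near 0. LSO1, a small protein induced by iron shortage, had 0 counts in the WT libraries and 291 to 346 counts in gsh1Δ, at least 125-fold higher at a floor of 3 counts per library. FIT3, a cell wall mannoprotein that retains siderophore iron, rose by a log2 change of 6.29 (adjusted p = 4.3e-08). FRE4, a ferrisiderophore reductase, was the target that fell (log2 change -1.09, adjusted p = 0.00306). Of the 13 iron-using genes whose mRNAs Cth2 is known to lower, all 13 fell, with a median log2 change of -1.60. The largest falls were in BIO2, biotin synthase (-2.16, adjusted p = 5.19e-06), and LEU1, an iron-sulfur enzyme of leucine synthesis (-2.12, adjusted p = 8.05e-05). Both Yap5 targets outside the members fell, CCC1 by -0.71 and TYW1 by -0.43 on the log2 scale (adjusted p = 0.00546 and 0.0254), as GRX4 did while YAP5 itself rose, and 1 of these 2 falls was lost without WT library 2 or gsh1Δ library 1 or 3.

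In the H3A110C background, gsh1Δ came with a rise of TIS11, HMX1, AFT1, YAP5 and FRA1. Against H3A110C in SCEG, H3A110Cgsh1Δ had 5 of 10 members past the test, all higher, where 8.62% of all genes passed, 4.59% higher and 4.03% lower. The H3A110C libraries of this comparison are also the controls of the H3A110Ccup1F8* comparison described below.

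TIS11 had 4.42, 9.83 and 9.64 CPM in H3A110C and 457, 444 and 503 CPM in H3A110Cgsh1Δ, 58.1-fold higher (log2 change 5.86, SE 0.24, adjusted p = 5.44e-06). HMX1 had 19.5, 23.4 and 25.9 CPM in H3A110C and 375, 392 and 409 CPM in H3A110Cgsh1Δ, 16.9-fold higher (log2 change 4.08, SE 0.13, adjusted p = 1.31e-06). YAP5 and AFT1 were higher in all 3 libraries, with log2 changes of 1.18 (adjusted p = 0.00183) and 0.79 (adjusted p = 0.00868). FRA1 rose by a log2 change of 0.51 (adjusted p = 0.0334). GRX4 had a log2 change of -0.39 and narrowly missed the threshold (adjusted p = 0.0503), and AFT2 one of -0.28.

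Without H3A110Cgsh1Δ library 2, GRX4 also passed (-0.42, adjusted p = 0.0143). The FRA1 call was lost without any 1 of H3A110C libraries 1, 2 and 3 or H3A110Cgsh1Δ libraries 1 and 3 (adjusted p between 0.0557 and 0.158) and with all libraries in 1 fit (0.52, adjusted p = 0.0693), and that of AFT1 without H3A110C library 1 (0.73, adjusted p = 0.0554). Of the Aft targets, 23 rose and none fell at this threshold (median log2 change 2.58). Of the 13 iron-using genes 10 fell and none rose, led by ACO1, aconitase (-1.20, adjusted p = 0.000626), with a median log2 change of -0.64, and 6 fell without H3A110C library 1.

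With H3A110C added to gsh1Δ, the factors and effectors that rose in gsh1Δ were lower, but AFT2 was the single member past the test, where 0.844% of all genes passed and 0.58% were lower. AFT2 had 43.3, 45.6 and 44.9 CPM in H3A110Cgsh1Δ, below every gsh1Δ library (log2 change -0.64, SE 0.11, adjusted p = 0.0356). That call was lost without any 1 of gsh1Δ libraries 1, 2 and 3 or H3A110Cgsh1Δ libraries 1 and 3 (adjusted p between 0.104 and 0.252).

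In addition to AFT2, the H3A110Cgsh1Δ libraries lay below every gsh1Δ library for 4 members, against 11.3% of all genes. AFT1 had 159, 198 and 181 CPM and YAP5 48.9, 40.4 and 44.6 CPM in H3A110Cgsh1Δ, with log2 changes of -0.40 and -0.50 (adjusted p = 0.153 and 0.102). The log2 change of TIS11 was -0.56 (SE 0.11, adjusted p = 0.0630) and that of HMX1 -0.49 (adjusted p = 0.102). GRX4 had 86.5, 93.3 and 85.7 CPM, above all gsh1Δ libraries, and did not pass the test (0.25, adjusted p = 0.352).

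These calls depended on the test and on the libraries, more than the log2 changes did. DESeq2 with every library called TIS11 (-0.55, adjusted p = 0.000504) and HMX1 (-0.48, adjusted p = 0.0117) as well as AFT2, and edgeR with all 26 libraries in 1 fit called AFT1 (-0.40, adjusted p = 0.0321) as well as AFT2. With every library 48 genes passed, 33 of them lower (0.844% and 0.58% of those tested). Without H3A110Cgsh1Δ library 2, which stood apart from its replicates, 1018 genes passed, 533 of them lower, so calls over all genes rose as well. In that fit 5 members passed, all lower: AFT2 (-0.67, adjusted p = 0.00251), TIS11 (-0.53, adjusted p = 0.00799), AFT1 (-0.49, adjusted p = 0.00918), HMX1 (-0.49, adjusted p = 0.0162) and YAP5 (-0.43, adjusted p = 0.0285). In the downstream lists, 8 of the 26 Aft targets fell and none rose (median log2 change -0.66), among them LSO1, with 74 to 112 counts against 291 to 346, and FIT1, a mannoprotein like FIT3 (-2.0, adjusted p = 0.0112). Of the 13 iron-using genes 4 rose and none fell (median 0.66), led by LEU1 (1.68, adjusted p = 0.0112) and BIO2 (1.61, adjusted p = 0.0132). Neither Yap5 target passed. Without gsh1Δ library 1 or 3, 1 Aft target and 0 iron-using genes passed in these directions, and without H3A110Cgsh1Δ library 3 they were 2 and 0, whereas without H3A110Cgsh1Δ library 2 they were 21 and 10.

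**Figure D2:**
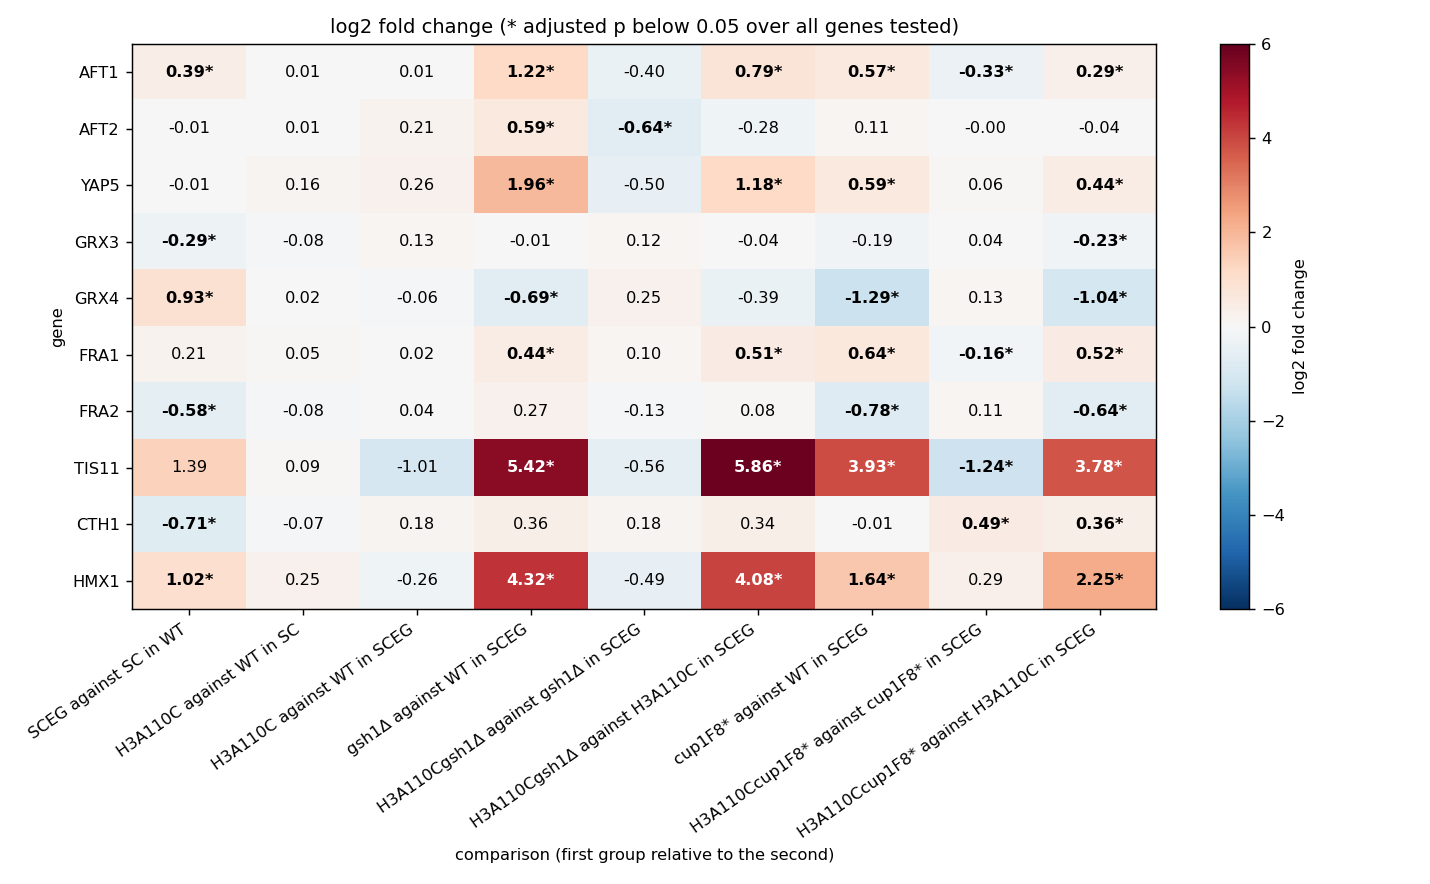
Log2 fold changes of the 10 members in the 9 pairwise comparisons, written in each cell, with an asterisk where the adjusted p was below 0.05. The TIS11 and HMX1 rows hold the largest values in the comparisons of gsh1Δ and cup1F8* with their controls, 5.42 and 4.32 for gsh1Δ against WT.

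With cup1F8* in place of CUP1, TIS11 and HMX1 again rose most among the members, GRX4 fell further than in gsh1Δ, and FRA2 fell as well. Against WT in SCEG, 7 of 10 members passed, 5 higher and 2 lower, where 69.1% of all genes passed, 34.3% higher and 34.8% lower. The WT libraries are those used for gsh1Δ. Given that background, the number of members called is no more than what genes at large showed, and the sizes of the changes carry the description.

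TIS11 had 317, 150, 245 and 312 CPM in cup1F8*, each far above the highest WT library. The difference was 15.3-fold, a log2 change of 3.93 (SE 0.37, adjusted p = 6.94e-06), and 4.60 on the log2 scale without WT library 1. It was the fourteenth largest rise of 5904 genes. HMX1 had 104, 59.3, 87.8 and 103 CPM, 3.11-fold higher (log2 change 1.64, SE 0.20, adjusted p = 4.86e-05), and cup1F8* library 2 was the lowest for both effectors. CTH1 had 39.0, 42.9, 42.4 and 41.7 CPM and its groups overlapped (log2 change -0.01).

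Of the regulators, AFT1 had 167, 140, 144 and 177 CPM, above every WT library (log2 change 0.57, SE 0.09, adjusted p = 0.000258). YAP5 had 26.5, 22.8, 22.2 and 29.5 CPM, higher by a log2 change of 0.59 (adjusted p = 0.00576). AFT2 overlapped with WT (0.11). FRA1 had 579, 535, 537 and 577 CPM, its highest group (log2 change 0.64, SE 0.07, adjusted p = 2.82e-05).

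GRX4 had 47.6, 61.0, 45.2 and 49.9 CPM against at least 112 CPM in WT, 0.408 of the WT level (log2 change -1.29, SE 0.11, adjusted p = 2.95e-06). FRA2 had 24.9, 23.0, 23.2 and 22.6 CPM, below all WT libraries (log2 change -0.78, SE 0.11, adjusted p = 0.000115). GRX3 had 95.5, 107, 110 and 100.3 CPM and missed the threshold (-0.19, adjusted p = 0.0588), which it passed without WT library 1 (-0.26, adjusted p = 0.0147) or without cup1F8* library 3 (-0.22, adjusted p = 0.046).

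Of the Aft targets 18 rose and 2 fell of 25 tested, with a median log2 change of 0.91. The largest rises were in ARN2, a siderophore transporter (3.99, adjusted p = 1.27e-05), and FIT3 (3.92, adjusted p = 8.26e-06), while the scaffold gene ISU1 fell (-0.64, adjusted p = 0.00388), and the falls numbered 1 without WT library 1 or 2 or cup1F8* library 2 or 3. Of the 13 iron-using genes 11 fell and none rose (median -0.79), with CYC1, cytochrome c, lowest at -2.08 (adjusted p = 3.05e-06). TYW1 and CCC1 fell by log2 changes of -1.54 and -0.68 (adjusted p = 2.19e-07 and 0.000445).

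Adding H3A110C to cup1F8* lowered TIS11, AFT1 and FRA1 and raised CTH1, 4 of 10 members, where 50.5% of all genes passed, 24.6% higher and 25.9% lower. TIS11 had 121, 124, 98.4 and 99.7 CPM in H3A110Ccup1F8*, all below the lowest cup1F8* library, 0.425 of the cup1F8* level (log2 change -1.24, SE 0.19, adjusted p = 0.000189). AFT1 had 135, 126, 113 and 134 CPM and fell by a log2 change of -0.33 (SE 0.08, adjusted p = 0.00444).

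FRA1 had 507, 522, 503 and 511 CPM and a small log2 change of -0.16 (SE 0.05, adjusted p = 0.0115), a call lost when all libraries shared 1 fit (adjusted p = 0.613). CTH1, the TIS11 paralog, went the other way, with 56.3, 64.8, 59.8 and 58.6 CPM and no overlap with cup1F8* (log2 change 0.49, SE 0.06, adjusted p = 5.14e-05). HMX1 did not follow TIS11 down: its 4 values of 114, 110, 106 and 114 CPM lay above all cup1F8* values, and the log2 change of 0.29 did not pass the test (adjusted p = 0.0845).

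HMX1 passed without cup1F8* library 1 or 4 (0.38 both times, adjusted p = 0.0433 and 0.044) and GRX4 without cup1F8* library 2 (0.23, adjusted p = 0.0157). Of the Aft targets 5 rose and 12 fell (median -0.31). VHT1, the biotin transporter (1.56, adjusted p = 5.22e-06), and ISU2, a scaffold for iron-sulfur clusters (1.13, adjusted p = 6.9e-06), led the rises, and FIT3 the falls (-1.41, adjusted p = 0.000816). Of the 13 iron-using genes 12 rose and none fell, with a median of 0.39, led by BIO2 (1.94, adjusted p = 2.51e-08) and LEU1 (1.40, adjusted p = 6.26e-07). Neither Yap5 target passed.

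Set against H3A110C in SCEG, H3A110Ccup1F8* had 9 of 10 members past the test, where 69% of all genes passed, 35.1% higher and 33.9% lower. TIS11 rose 13.7-fold (log2 change 3.78, SE 0.20, adjusted p = 2.84e-08) and HMX1 4.74-fold (log2 change 2.25, SE 0.10, adjusted p = 1.21e-08). FRA1, YAP5, CTH1 and AFT1 rose by log2 changes of 0.52, 0.44, 0.36 and 0.29, GRX4, FRA2 and GRX3 fell by 1.04, 0.64 and 0.23, and AFT2 was the member that did not pass (-0.04).

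The AFT1 call was lost without H3A110C library 1 or 3 (adjusted p = 0.12 and 0.0679). That of GRX3 was lost without H3A110C library 2 or 3 or H3A110Ccup1F8* library 1 or 2 (adjusted p between 0.054 and 0.0732), and when libraries were scaled by total counts only (-0.12, adjusted p = 0.254). Of the Aft targets 21 rose and none fell of 25 tested (median 1.16). The iron-using genes divided: 3 rose and 7 fell (median -0.33), with BIO2 up by 1.90 (adjusted p = 8.94e-08) and CYC1 down by -1.01 (adjusted p = 6.06e-07). TYW1 and CCC1 fell by log2 changes of -1.36 and -0.57.

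**Figure D3:**
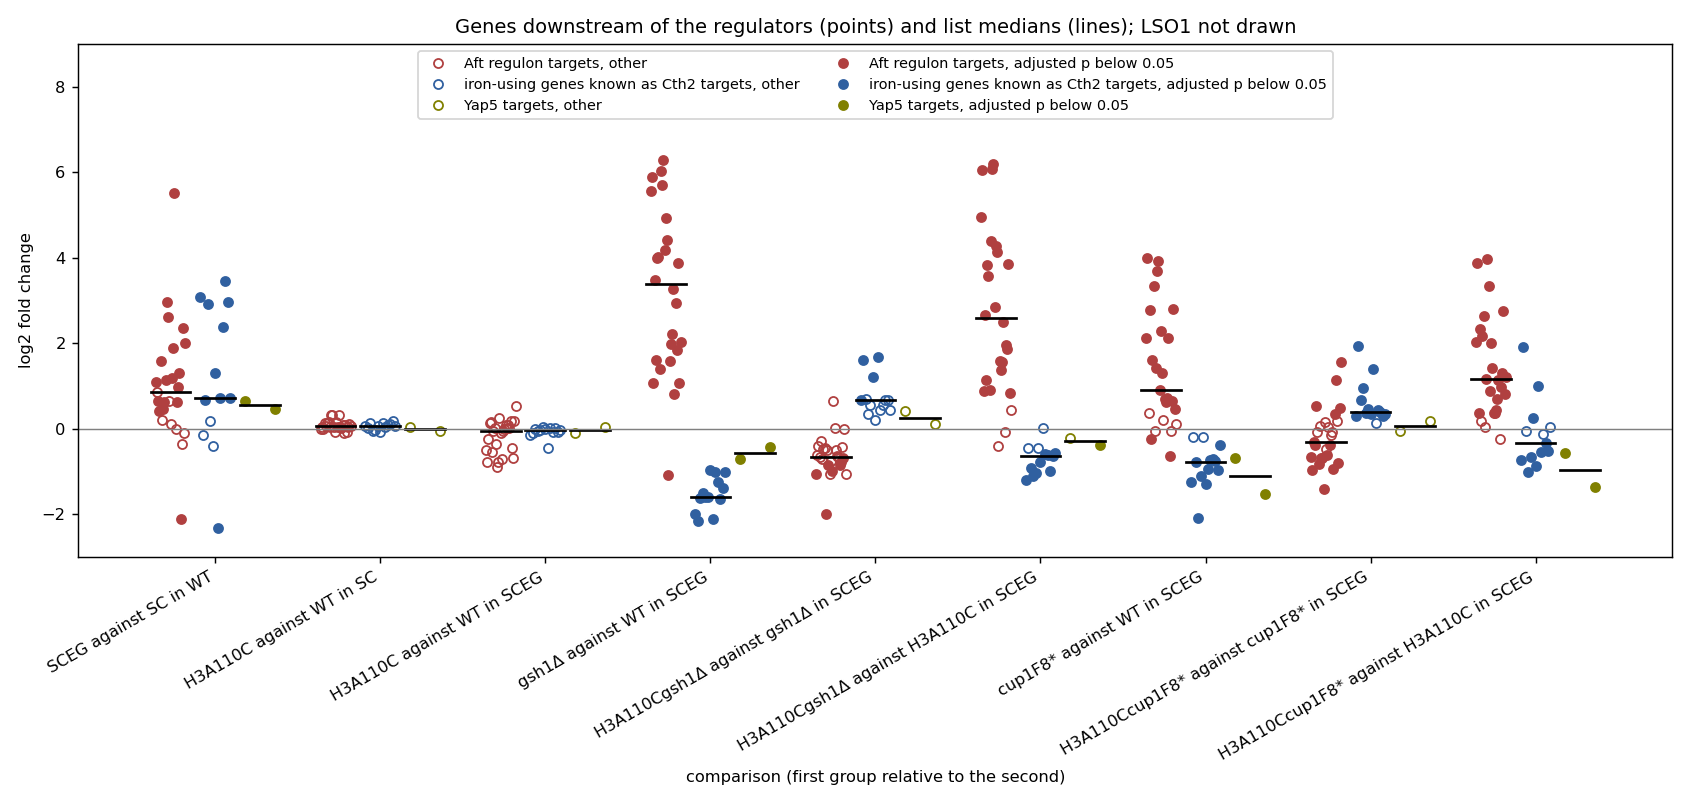
Log2 fold changes of the genes in the 3 downstream lists (Aft targets, iron-using genes whose mRNAs Cth2 lowers, and Yap5 targets) by comparison, with the list median as a bar. Filled points passed the test and open circles did not, LSO1 is counted in the medians but not drawn, and the Aft list median is 3.37 for gsh1Δ against WT where that of the Cth2 list is -1.60.

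For SCEG against SC in WT, 6 of 10 members passed, where 50.9% of all genes passed, 25.6% higher and 25.3% lower. That number is near what genes at large showed, and the medium cannot be told apart from the set of libraries. HMX1, GRX4 and AFT1 rose and CTH1, FRA2 and GRX3 fell. HMX1 had 12.4, 16.2 and 13.8 CPM in SC, 2.03-fold below SCEG (log2 change 1.02, SE 0.17, adjusted p = 0.00264). GRX4 had 81.1, 49.0 and 67.2 CPM in SC, below all SCEG libraries (0.93, SE 0.19, adjusted p = 0.00625). AFT1 had 76.4, 87.4 and 80.0 CPM in SC, also below SCEG (0.39, SE 0.10, adjusted p = 0.0147).

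CTH1 had 63.0, 85.0 and 58.0 CPM in SC, above every SCEG library (log2 change -0.71, SE 0.19, adjusted p = 0.0172), and FRA2 61.4, 59.0 and 60.2 CPM (-0.58, SE 0.13, adjusted p = 0.00941). TIS11, at 4.39, 9.80 and 4.95 CPM in SC, was lower there in all 3 libraries and missed the threshold (1.39, SE 0.50, adjusted p = 0.0526). Without SCEG library 1 its log2 change was 0.74 (adjusted p = 0.196), and the lowest SCEG library, at 9.92 CPM, was barely above SC library B. GRX3 had 139, 152 and 144 CPM in SC (-0.29, adjusted p = 0.0438), a call lost when libraries were scaled by total counts only (-0.09, adjusted p = 0.53). AFT2 and YAP5 had log2 changes of -0.01 each.

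SC library B was the highest or lowest of the WT libraries in SC for all 10 members: the highest for FRA1 (435 CPM against 251 in each of the others), AFT1, YAP5, GRX3, TIS11, CTH1 and HMX1, and the lowest for AFT2, GRX4 and FRA2. Without it 8 members passed, with TIS11 (1.83, adjusted p = 0.0098) and FRA1 (0.52, adjusted p = 0.00176) added. Calls over all genes rose as well, to 3781 from the 2958 (50.9% of those tested) with it, so the added member calls are not particular to the members. The AFT1 call was lost without SC library A or C or SCEG library 1 (adjusted p between 0.0568 and 0.0666), that of CTH1 without SCEG library 2 or 3 (adjusted p = 0.0585 and 0.0616), and that of GRX3 without any 1 of SC libraries A and C and SCEG libraries 1, 2 and 3 (adjusted p between 0.0647 and 0.13). Of the Aft targets 17 rose and 1 fell of 25 tested (median 0.86), led by FRE5, a reductase homolog (5.52, adjusted p = 2.84e-05). Of the 13 iron-using genes 9 rose and 1 fell, LEU1 (-2.32, adjusted p = 0.00031), and both Yap5 targets rose.

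No member passed the test for H3A110C alone in either medium, which does not show that the members were unchanged. In SC, 0 of 10 members passed, 0 had an unadjusted p under 0.05 and DESeq2 called 0, where 0.0174% of all genes passed. TIS11 had 2.10, 13.1 and 4.45 CPM in H3A110C, a wider spread than in WT, and the log2 change of 0.09 had an SE of 0.71. HMX1 had 14, 21.2 and 14.4 CPM (0.25), and the other 8 members had log2 changes between -0.08 and 0.16.

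In SCEG, 0 of 10 members passed by edgeR or by DESeq2, where 0.0353% of all genes passed. TIS11 was the 1 member with an unadjusted p under 0.05. All 3 of its H3A110C libraries, which had 4.42, 9.83 and 9.64 CPM, were below the lowest WT library at 9.92 CPM, as were 5.4% of all genes (log2 change -1.01, SE 0.44, adjusted p = 0.825), and the log2 change was -0.35 without WT library 1. The other 9 members had log2 changes between -0.26 for HMX1 and 0.26 for YAP5.

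No member passed a test of whether H3A110C acted differently with gsh1Δ, with cup1F8* or with the medium, where 0.365%, 16.2% and 0% of all genes did. With gsh1Δ, AFT2 had a difference of effects of -0.85 (SE 0.19, adjusted p = 0.0756), YAP5 one of -0.76 (SE 0.19, adjusted p = 0.104) and AFT1 one of -0.41 (adjusted p = 0.262), all in log2 units, and these 3 had an unadjusted p under 0.05. DESeq2 called AFT2 and YAP5 (adjusted p = 0.00962 and 0.0463), and edgeR called AFT2 without H3A110Cgsh1Δ library 2 (-0.87, adjusted p = 0.0325).

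With cup1F8*, HMX1 had a difference of effects of 0.55 (adjusted p = 0.144), CTH1 one of 0.32 (adjusted p = 0.116) and AFT1 one of -0.33 (adjusted p = 0.111), again 3 members at an unadjusted p under 0.05 and 0 by DESeq2. CTH1 passed without WT library 3 (0.40, adjusted p = 0.0491). TIS11, which fell with H3A110C in cup1F8*, had a difference of -0.21 with an SE of 0.55 (adjusted p = 0.826). With the medium, 0 members had an unadjusted p under 0.05 and DESeq2 called 0.

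The balance within each pair of related genes shifted between groups. Per coding length, AFT1 and AFT2 were at like levels in SC. The AFT1 to AFT2 ratio was 1.04 ± 0.25 (SD, n = 3) in WT there. AFT1 was ahead in every SCEG library, with ratios of 1.14 to 1.58 for WT and 1.03 to 1.33 for H3A110C. They ranged from 1.62 to 2.01 for cup1F8* and from 1.26 to 1.65 for H3A110Ccup1F8*. The means were highest in gsh1Δ at 2.07 ± 0.22 (SD, n = 3) and in H3A110Cgsh1Δ at 2.42 ± 0.21 (SD, n = 3). For GRX4 to GRX3 the ratio was 0.469 ± 0.134 (SD, n = 3) in WT in SC, 1.09 ± 0.20 (SD, n = 3) in WT in SCEG and 0.506 ± 0.068 (SD, n = 4) in cup1F8*. GRX4 was thus the more variable glutaredoxin. It was below GRX3 per coding length in every library of the 4 groups without GSH1 or CUP1, where the ratio reached 0.811 at most. The same held in every SC library, where the ratio reached 0.598 in WT and 0.644 in H3A110C. In SCEG, it was 0.834 to 1.12 in H3A110C and 0.943 to 1.32 in WT.

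For TIS11 to CTH1 the order turned over: TIS11 was below CTH1 in WT in SC, at 0.103 ± 0.026 (SD, n = 3), and in WT in SCEG, at 0.429 ± 0.198 (SD, n = 3), and above it in the strains without CUP1 or GSH1. The ratio was 2.11 ± 0.26 (SD, n = 4) in H3A110Ccup1F8*, 7.08 ± 2.35 (SD, n = 4) in cup1F8*, 9.13 ± 0.75 (SD, n = 3) in H3A110Cgsh1Δ and 15.3 ± 0.7 (SD, n = 3) in gsh1Δ. No test was run on these ratios.

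**Figure D4:**
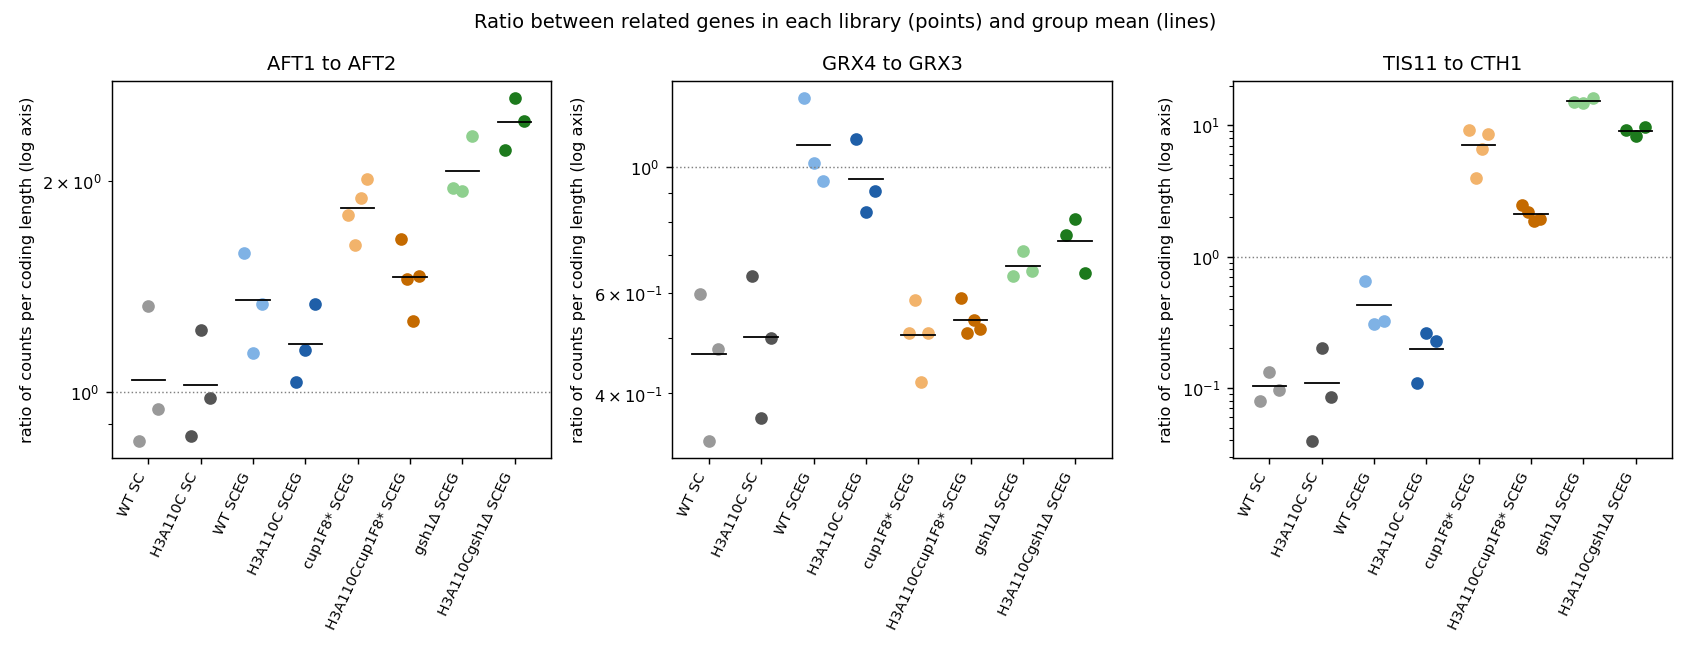
Ratio of CPM per coding length within 3 pairs of related genes, AFT1 to AFT2, GRX4 to GRX3 and TIS11 to CTH1, by library and group on a log axis. Each point is a library, and the TIS11 to CTH1 mean runs from 0.103 in WT in SC to 15.3 in gsh1Δ.

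In the order of group means, TIS11 ran from gsh1Δ, at 685.9 ± 52.3 CPM (SD, n = 3), through H3A110Cgsh1Δ, cup1F8* and H3A110Ccup1F8* to WT in SCEG, with no overlap between neighbours. Below WT in SCEG, the 3 lowest groups overlapped each other. HMX1 began with the same pair, then placed H3A110Ccup1F8* before cup1F8*, again without overlap, and its 4 lowest groups overlapped one with the next. The means of both genes in the 4 groups without GSH1 or CUP1 were above those in all the others.

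The summed behaviour of the iron-using genes can be set beside TIS11. The geometric mean of the 13 genes was 419 to 479 CPM over the WT libraries in SCEG and 136 to 183 CPM in gsh1Δ, with 243 to 280 CPM in H3A110Cgsh1Δ. It was 220 to 301 CPM in cup1F8* and 388 to 409 CPM in H3A110Ccup1F8*. In SC, where TIS11 was at its lowest, it was 182 to 239 CPM in WT, so the order of the 2 measures is not the same across media.

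**Figure D5:**
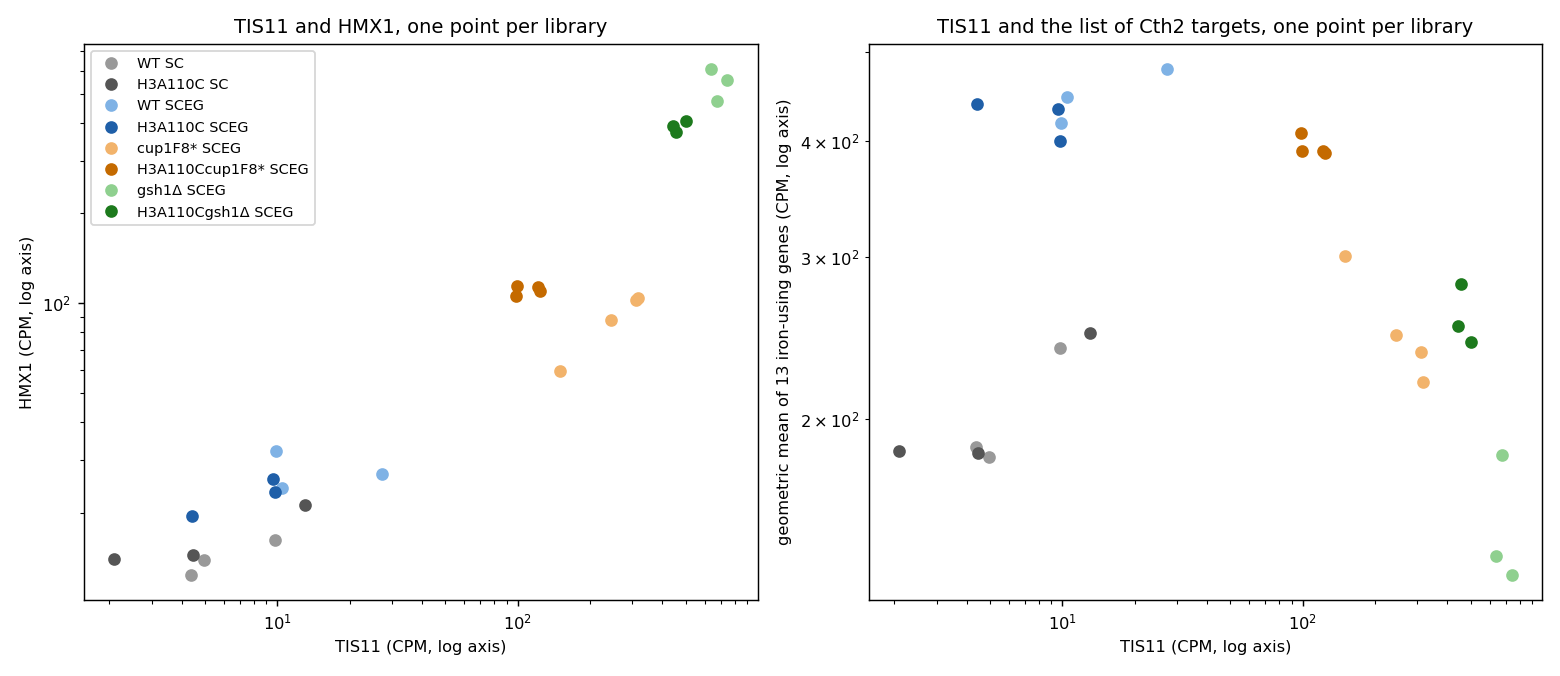
TIS11 CPM in each library against HMX1 CPM and against the geometric mean CPM of the 13 iron-using genes, on log axes, with groups marked by colour. The gsh1Δ libraries, at 639 to 742 CPM of TIS11, have the lowest means of the list among the SCEG libraries, and the SC libraries have low values of both measures.

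Across the 26 libraries, each member's nearest genes by Pearson correlation of log2 CPM were listed among 6069 genes, as a description over libraries that share strains and sets. TIS11 was most like FET3 (r = 0.987), the multicopper ferroxidase of iron uptake, and HMX1 most like FTH1 (r = 0.984), a vacuolar iron transporter. AFT1 was most like FTR1 (r = 0.971), the iron permease, FIT3 (r = 0.971) and ARN1 (r = 0.966). YAP5 was most like AKR1 (r = 0.959), a palmitoyltransferase, and then the Aft targets FRE6 (r = 0.953) and LSO1 (r = 0.950). Among the sensors, GRX4 was most like HEM1 (r = 0.945), the first enzyme of heme synthesis, GRX3 most like ISW1 (r = 0.907), FRA1 most like LAM5 (r = 0.972) and FRA2 most like CSL4 (r = 0.977). AFT2 and CTH1 had the lowest best values, 0.764 with SCW11 and 0.862 with YBL005W-B, a retrotransposon frame. Between members, TIS11 and HMX1 had r = 0.952, AFT1 had 0.948 with HMX1 and 0.945 with TIS11, and YAP5 had 0.938 with HMX1, while FRA1 and FRA2 had r = -0.715.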

How the data were processed

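Poly-A selected, strand-specific libraries were aligned by the authors with HISAT2 to R64-1-1 and counted per open reading frame with featureCounts, and the deposited values used here are these raw counts. Versions are not given in the sources used here. DESeq2, named by the authors, made a normalized table that was not used here. Counts were scaled by TMM to CPM. Each pair of groups was fitted by itself with edgeR 4.0.16 in R 4.3.3 (filterByExpr, quasi-likelihood test, 0.05 after Benjamini-Hochberg adjustment over all genes tested), and the log2 changes carry standard errors from that fit. Differences of effects were interaction terms over 4 groups.

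Members and lists were chosen with earlier results of these data known. All 10 members were named, and from each list the 2 largest rises and falls past the test in a comparison. Likeness used log2 CPM with a prior count of 2. All 50-base windows of the members occurred once in the genome by exact match. Near-identical copies were not searched for. Every pair of replicates differed by more than sampling noise. The columns of the SC libraries carry letters, and were placed in groups only.

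On data simulated for 3 comparisons with known changes, edgeR found 96% of 2-fold changes for gsh1Δ against WT (8 false calls of 5685 genes), 99% for cup1F8* against WT (10 of 5838) and 71% for the difference of effects (9 of 5717). The simulation gave every gene the same relative spread and had no library that stood apart. It placed 100 changes of each size, in genes above a minimum of counts. The real libraries differ from that setting, so these shares do not give the power reached in them. Alternatives were DESeq2 1.42.0, its size factors, total counts, no filter, at least 10 counts in every library, all libraries in one fit, a block on replicate numbers, and leaving out each library. Leaving out library B of both SC strains, and a block on the letters of the SC columns, were chosen after seeing the data. Correlations of same-numbered libraries were not all above 0.1 in any comparison within SCEG, so the numbers were not taken as pairing.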

Additional observations from a re-analysis of the deposited data

Results flagged for a closer look

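Genes of the downstream lists, but none of the 10 members, met a test of a difference between effects, by edgeR with adjusted p over all genes. With cup1F8*, 4 of 25 Aft targets tested passed, 2 higher and 2 lower, where 16.2% of all genes did. The Aft share was thus near that of all genes. Of the 13 iron-using genes 6 passed with cup1F8*, all higher. With gsh1Δ 2 of the 13 iron-using genes passed, where 0.365% of all genes did. The 8 values below are the 2 largest per list and direction. Each value is the log2 effect of H3A110C in the mutant strain minus that in WT, in SCEG. With cup1F8*, the differences were 2.04 for BIO2 (adjusted p = 2.16e-06), 1.87 for LEU1 (adjusted p = 3.89e-05), 1.05 for VHT1 (adjusted p = 0.00658), 0.96 for ISU2 (adjusted p = 0.00943), -1.02 for FTR1 (adjusted p = 0.0067) and -0.76 for FET3 (adjusted p = 0.0418). With gsh1Δ, they were 2.15 for LEU1 (adjusted p = 0.0107) and 1.72 for BIO2 (adjusted p = 0.0178). Both comparisons share the WT and H3A110C libraries. With gsh1Δ, no gene passed without H3A110C library 1, 0 of the iron-using genes without gsh1Δ library 1, and 1 without H3A110C library 2 or gsh1Δ library 3, while 9 passed without H3A110Cgsh1Δ library 2 and 6 without gsh1Δ library 2. Without H3A110Cgsh1Δ library 2, 9 Aft targets passed as well, all lower, where 0 did with every library. With cup1F8*, the falls numbered 1 to 4 and the iron-using genes 5 to 12 when each library was left out, the highest of both without cup1F8* library 2. In groups of 4 libraries, 20 sets of member values were checked for a library far from the others and none met that criterion.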

How the results depend on the processing

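Over the settings other than leaving out a library, 850 values of the members were recomputed: 826 kept their call, 8 lost it, 16 gained it, and no called value changed direction. For H3A110Cgsh1Δ against gsh1Δ, 1 member passed, 3 with DESeq2, 2 with all libraries in one fit and 0 with the replicate block, and 0 to 5 when each library was left out in turn. For H3A110Cgsh1Δ against H3A110C, 5 passed and 3 to 6 when each library was left out. For the difference of H3A110C effects between gsh1Δ and WT, 0 passed, 2 with DESeq2, 1 with all libraries in one fit, 1 with the replicate block and 0 to 1 when each library was left out; for cup1F8*, 0 passed and 0 to 1. The cause of these differences was not tested.

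Same-numbered libraries did not correlate throughout. For H3A110C against WT in SCEG their correlations were 0.056 to 0.459 (mean 0.275, against -0.138 for different numbers). In SC, same-lettered libraries had 0.623 to 0.886 (mean 0.742). Libraries of different letters had a mean of -0.283 but reached 0.754, within the range of the same-lettered ones. The replicate block lost AFT1 in H3A110Ccup1F8* against H3A110C (0.26, adjusted p = 0.0549) and AFT2 in H3A110Cgsh1Δ against gsh1Δ. It gained HMX1 in H3A110Ccup1F8* against cup1F8* (0.32, adjusted p = 0.0451) and AFT2 in the difference of effects for gsh1Δ. No paired analysis was possible because the SC columns carry letters, not numbers, for SCEG against SC; a block on the letters within SC changed no member call.

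Counts over all genes moved more. For H3A110C against WT, 1 gene passed in SC, 2 with DESeq2, 2 with the letter block and 5 without library B; in SCEG 2 passed, 23 with DESeq2, 4 with total counts, 13 in one fit and 98 with the block. For gsh1Δ against WT, 1436 passed and 900 to 1269 when each library was left out. For H3A110Cgsh1Δ against gsh1Δ, 48 passed, 203 with DESeq2, 262 in one fit and 1 to 1018 when each library was left out. For H3A110Cgsh1Δ against H3A110C, 490 passed, 873 in one fit and 163 to 1746 when each library was left out. For H3A110Ccup1F8* against cup1F8*, 2982 passed and 1642 in one fit. For the difference of effects, 21 passed with gsh1Δ, 151 with DESeq2, 62 in one fit, 72 with the block and 0 to 293 when each library was left out, 962 with cup1F8* and 371 in one fit, and 0 with the medium and 1 with DESeq2. Total counts in place of TMM raised all members by 0.20 for SCEG against SC, 0.16 for cup1F8* against WT and 0.11 for H3A110Ccup1F8* against H3A110C on the log2 scale, and moved the share of higher calls from 50.3% to 67.4% and from 49.6% to 61.5% in the first pair. With it, AFT2 passed for cup1F8* against WT (0.27, adjusted p = 0.0473) and TIS11 for SCEG against SC (1.60, adjusted p = 0.0273). Depth limits TIS11 most, at 17 to 138 counts per library in the 4 groups with GSH1 and CUP1.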
